A study of Mus musculus with 16 samples.

Results

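The genes described here are 10 genes of the G1 phase of the cell cycle, chosen by name: the CDK inhibitors *Cdkn1a*, *Cdkn1b*, *Cdkn2a*, *Cdkn2b* and *Cdkn2c*, the kinases *Cdk4* and *Cdk6*, the D-type cyclins *Ccnd1* and *Ccnd2*, and *Rb1*. They are 10 of the 20622 genes listed in total RNA and 10 of the 15235 genes listed in ribosome-protected fragments (RPFs), the stretches of mRNA that a ribosome shields from RNase. All 10 had enough counts to be tested in total RNA and 9 in RPFs, where *Cdkn2c* had too few.

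D-type cyclins bind and activate CDK4 and CDK6, and the active kinases phosphorylate the RB protein, which then releases E2F transcription factors and lets cells enter S phase. The INK4 inhibitors, p16INK4a from *Cdkn2a*, p15INK4b from *Cdkn2b* and p18INK4c from *Cdkn2c*, bind CDK4 and CDK6 themselves, whereas the CIP/KIP inhibitors p21 (*Cdkn1a*) and p27 (*Cdkn1b*) act mainly on cyclin-CDK2 complexes. *Cdkn2a* also encodes p19ARF, which is read in another frame from a distal first exon and stabilises p53 by restraining MDM2. p16INK4a and p21 are widely used as markers of cellular senescence.

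The cells were KM cells, grown from the lung tumours of 1 male mouse at clinical endpoint that carried *Rosa26* LSL-MYC/LSL-MYC, among other alleles, and had been induced as an adult with Ad5-SPC-CRE, an adenovirus whose Cre is driven by the surfactant protein C promoter of alveolar type II cells. Both lines therefore shared the MYC transgene and the other alleles of that mouse. KM_NTC cells carry a non-targeting CRISPR guide, and KM_4A2cr cells, which received a guide to the coding region of *Eif4a2*, the gene of an RNA helicase, are a pool of 4 clones that the study picked for their loss of eIF4A2 protein on western blots. Both had been selected in puromycin and were left untreated here. Each line gave 4 RPF libraries and 4 libraries of cytoplasmic total RNA, the latter from the same lysates, in replicates that the series description gives as separate experiments. Differences between the clones in the pool and the loss of *Eif4a2* cannot be told apart with these libraries, and in a bulk lysate a transcript present in fewer cells cannot be told apart from less of it in every cell.

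RPF libraries held 5703271 to 9621848 counts in KM_NTC and 4512403 to 8515151 in KM_4A2cr cells. Total RNA libraries held 5580726 to 9312622 and 5350919 to 7213596 counts. Replicate 4 had the lowest total in every group, and several genes stood apart in it. *Cd68*, a lysosomal protein and leukocyte marker, had 219.9 TPM, a length-corrected transcript level, in KM_NTC replicate 4 and 32.5 to 38.3 TPM in replicates 1 to 3, and 154 TPM against 37.3 to 62.9 TPM in KM_4A2cr cells. Of 6 epithelial markers, 6 were above 1 TPM in both lines, and of 8 alveolar type II markers 3 averaged 1 TPM or more in KM_NTC and 2 in KM_4A2cr cells. Their summed level was 43.3 to 59.1 TPM, mainly from *Abca3* (27.6 to 47.6 TPM) and *Etv5* (6.19 to 21.4 TPM), whereas the surfactant genes *Sftpc* and *Sftpb* were at 0 in all libraries. Summed fibroblast markers reached at most 3.03 TPM and endothelial markers at most 1.94 TPM, and of 6 leukocyte markers only *Cd68* averaged 1 TPM or more.

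The targeted gene was read first. *Eif4a2* (ENSMUSG00000022884.17) had 97.7, 122, 99.9 and 389 CPM (counts relative to the library total, TMM-scaled) in the RPFs of KM_NTC replicates 1 to 4 and 51.0, 88.4, 74.8 and 346 CPM in those of KM_4A2cr cells. RPFs were lower in 4 of 4 pairs of replicates, with a log2 fold change of -0.49 ± 0.15 (SE, edgeR adjusted p = 0.0941), and the total RNA log2 fold change was -0.18 ± 0.13 (SE, edgeR adjusted p = 0.504). The RPF call was lost without replicate 1 (-0.35, adjusted p = 0.3), 2 (-0.50, 0.377) or 3 (-0.49, 0.351). The counts thus show RNA and footprints of the gene in both lines, and loss of the protein was read by the study on western blots, not here.

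*Cdkn2a* and *Cdkn2b* lie side by side on chromosome 4, and the results below turn on them. The 250 bases before each of their RefSeq transcription starts are printed because both genes had lower levels in KM_4A2cr cells. *Cdkn2a* has a distal start, which opens the p19ARF transcript, and a proximal start, which opens the p16INK4a transcript. The sequences are those of RefSeq on GRCm38.p6, all on the minus strand. Capitals mark E2F motifs (TTTCCCGC, TTTCGCGC, TTTGCCGC or TTTGGCGC) and GC boxes (GGGCGG), searched on both strands. The windows are chr4:89294620-89294869, chr4:89282193-89282442 and chr4:89311033-89311282, in the order given.
Cdkn2a distal start: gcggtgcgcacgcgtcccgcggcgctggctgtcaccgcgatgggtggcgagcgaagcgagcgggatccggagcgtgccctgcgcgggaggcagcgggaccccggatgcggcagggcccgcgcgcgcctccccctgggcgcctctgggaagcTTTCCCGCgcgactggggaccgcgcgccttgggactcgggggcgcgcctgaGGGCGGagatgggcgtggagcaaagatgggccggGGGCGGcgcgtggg
Cdkn2a proximal start: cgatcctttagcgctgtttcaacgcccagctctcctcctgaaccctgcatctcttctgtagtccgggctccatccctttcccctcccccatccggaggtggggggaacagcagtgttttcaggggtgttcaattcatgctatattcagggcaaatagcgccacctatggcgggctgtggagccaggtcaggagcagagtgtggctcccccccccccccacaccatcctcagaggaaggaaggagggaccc
Cdkn2b start: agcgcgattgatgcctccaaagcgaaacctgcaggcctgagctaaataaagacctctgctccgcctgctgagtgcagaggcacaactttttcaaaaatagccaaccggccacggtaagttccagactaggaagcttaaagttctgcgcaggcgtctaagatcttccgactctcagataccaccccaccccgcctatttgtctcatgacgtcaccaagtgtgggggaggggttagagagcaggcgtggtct

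The distal *Cdkn2a* window held 1 E2F motif and 2 GC boxes and was 78.4% G or C. The proximal window was 60% G or C and the *Cdkn2b* window 53.6%, and neither held these motifs. Among 32851 RefSeq windows of the same length, 1.86% held an E2F motif and 32.7% a GC box, and the median G or C content was 52.4%. Windows were found for 7 of the 10 genes. The E2F motif was in 1 of their 10 windows, the distal one of *Cdkn2a*, and a TATA box (TATAAA, in 12.4% of all windows) was in that of *Cdk6* alone.

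*Cdkn1a* is the best known target of p53, and the stretch before its upstream start is printed for the p53 half-sites it holds, shown in capitals. The half-site was searched as RRRCWWGYYY, where R is A or G, W is A or T and Y is C or T. Only exact matches are in capitals, so the capitals need not cover a whole p53 site. Any number of half-sites was found in 7.13% of all windows. The upstream window of *Cdkn1a* held 2 and its other window held 0. The stretch is chr17:29090891-29090952 of GRCm38.p6, plus strand, from RefSeq.
Cdkn1a upstream start: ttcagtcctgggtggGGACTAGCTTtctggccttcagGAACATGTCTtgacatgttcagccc

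Of the INK4 inhibitors, *Cdkn2a* and *Cdkn2b* fell in KM_4A2cr cells. Their RPFs and total RNA were at 0.435 to 0.535 of the KM_NTC level, while the scarce *Cdkn2c* had higher values in KM_4A2cr cells that did not pass the test. In RPFs, 2 of the 9 tested genes were called lower (edgeR, adjusted p under 0.1), as were 3.72% of all 10291 genes tested, and 0 of 9 were called higher, against 6.6% of all genes. None of the 9 was higher at an unadjusted p under 0.05 either, and DESeq2 called the same numbers, 2 and 0. Over all genes, 2411 of 10291 had an unadjusted p under 0.05 in RPFs, both directions together. In total RNA, 2 of 10 were called lower and 1 higher, against 1.78% and 4.35% of all 10880 genes tested. Of all calls, 63.9% were higher in RPFs and 70.9% in total RNA, and this split fell to 53.5% and 60.1% with upper-quartile scaling and to 29.8% and 23.2% with library size alone, under which all tested genes had medians of -0.14 and -0.15. *Cdkn2a* and *Cdkn2b* were called lower under each of these scalings. Without the replicate as a block none of the 10 genes was called in RPFs or total RNA, with adjusted p-values of 0.998 or more (edgeR).

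*Cdkn2a* (ENSMUSG00000044303.7) had 159, 126, 153 and 83.3 CPM in the RPFs of KM_NTC replicates 1 to 4. In KM_4A2cr replicates 1 to 4 it had 90.3, 61.6, 58.9 and 38.5 CPM. Each KM_4A2cr library was below the KM_NTC library of its replicate, and the lines overlapped only because replicate 4 of KM_NTC was below replicate 1 of KM_4A2cr. The level was 130 ± 34.3 CPM in KM_NTC and 62.3 ± 21.3 CPM in KM_4A2cr cells (SD, n = 4). RPFs fell by 1.08 on the log2 scale (SE 0.14, 95% interval -1.39 to -0.77, edgeR adjusted p = 0.00603). The call was lost without replicate 3, where the log2 fold change was -0.95 (edgeR adjusted p = 0.13), and held without replicate 4 at -1.07. The coding regions of p16INK4a and p19ARF overlap in an exon read in different frames, and the RPF counts stand on transcript ENSMUST00000107131.2 alone, so this value does not separate the proteins.

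In total RNA, *Cdkn2a* had 46.8, 41.2, 40.0 and 23.4 CPM in KM_NTC replicates 1 to 4 and 28.0, 19.6, 15.9 and 17.5 CPM in KM_4A2cr cells. The pairs again all pointed down, by ratios of 0.597, 0.476, 0.397 and 0.749. RNA fell by 0.90 on the log2 scale (SE 0.16, 95% interval -1.26 to -0.55, edgeR adjusted p = 0.0155). Without replicate 2 the log2 fold change was -0.84 (edgeR adjusted p = 0.12) and without replicate 3 it was -0.76 (edgeR adjusted p = 0.188), so the call needed both pairs.

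**Figure D1:**
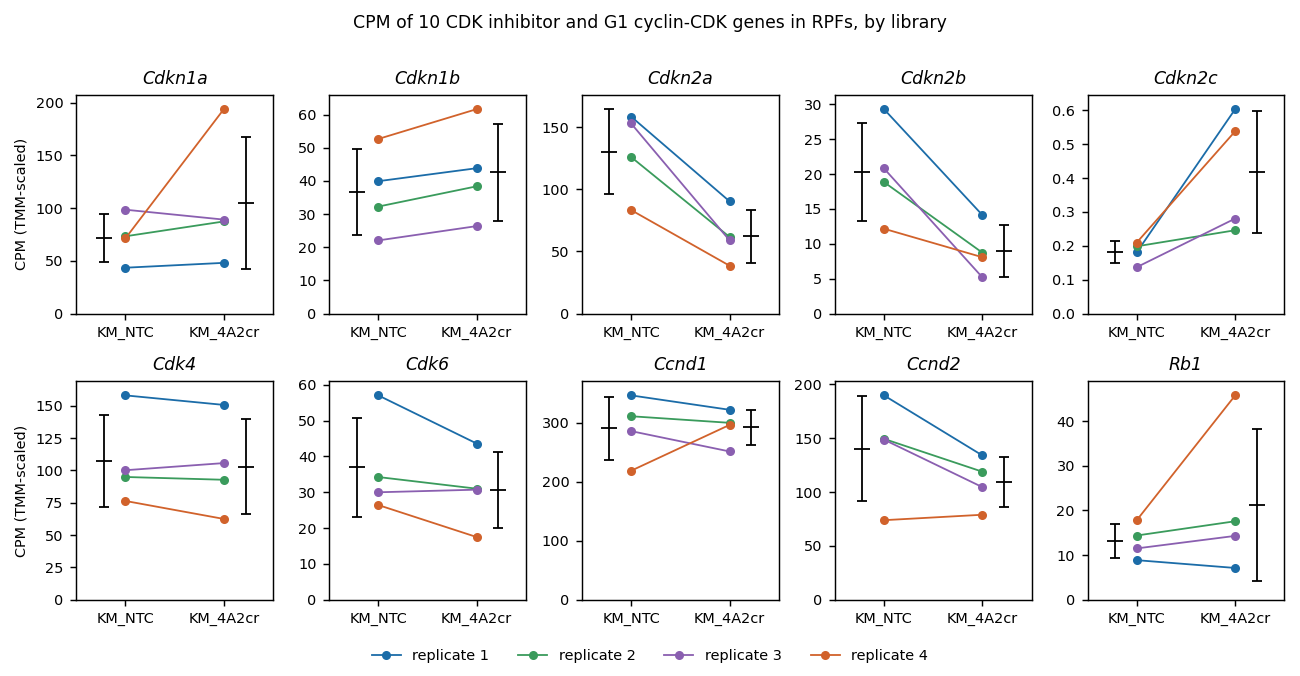
RPF levels of the 10 genes in CPM (TMM-scaled, vertical axes from 0, 1 scale per gene) in KM_NTC and KM_4A2cr cells. Coloured points and lines are the 4 replicate pairs, and black marks are means with SD. *Cdkn2a* and *Cdkn2b* are lower in KM_4A2cr cells in 4 of 4 pairs, and the *Cdkn1a* difference is carried by replicate 4.

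The counts assigned to each of the annotated transcripts of *Cdkn2a* were lower in KM_4A2cr cells. ENSMUST00000060501.5 had 58.4, 57.8, 53.1 and 24.4 TPM in KM_NTC replicates 1 to 4 and 31.7, 25.5, 20.2 and 10.2 TPM in KM_4A2cr cells. It fell by 1.02 on the log2 scale (SE 0.16, edgeR adjusted p = 0.00607 over isoforms). ENSMUST00000107131.2 had 59.7, 64.7, 46.6 and 23.7 TPM in KM_NTC replicates 1 to 4 and 35.5, 28.8, 16.5 and 16.4 TPM in KM_4A2cr cells. Its fall was 0.84 on the log2 scale (log2 fold change -0.84, SE 0.19, edgeR adjusted p = 0.0396). Of 19596 isoforms tested, 1.34% were called lower and 3.3% higher. ENSMUST00000060501.5 took 48.6% ± 2.53 of the *Cdkn2a* counts in KM_NTC and 45.4% ± 6.83 in KM_4A2cr cells (SD, n = 4), with library ranges of 45.6% to 51.7% and 36.8% to 53.6% that overlapped. The single libraries rested on 76 to 458 counts, which gave 95% Wilson intervals, for counting error only, of 41.1% to 50.2% at the deepest and 26.9% to 48.1% at the shallowest. Nearly all expected counts were whole numbers, so reads of exons that both transcripts share were not divided between them. This limits the shares and the fits of each transcript. A fall of 1 transcript alone could lower the counts assigned to both, so these fits cannot tell whether both fell. The call for ENSMUST00000060501.5 was lost without replicate 3 (log2 fold change -0.91, edgeR adjusted p = 0.106). That for ENSMUST00000107131.2 was lost without replicate 1 (-0.90, adjusted p = 0.185), 2 (-0.74, 0.308) or 3 (-0.66, 0.363).

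*Cdkn2b* (ENSMUSG00000073802.6) had 29.3, 18.9, 20.8 and 12.2 CPM in the RPFs of KM_NTC replicates 1 to 4 and 14.1, 8.73, 5.19 and 8.08 CPM in those of KM_4A2cr cells. Replicate 3 had the widest gap, a ratio of 0.249, and replicate 4 the narrowest, 0.664. RPFs fell by 1.20 on the log2 scale (SE 0.21, 95% interval -1.68 to -0.73, edgeR adjusted p = 0.0195). Counts ran from 58 to 324 in KM_NTC and from 30 to 117 in KM_4A2cr libraries, fewer than for *Cdkn2a*. Without replicate 2 the log2 fold change was -1.23 (edgeR adjusted p = 0.102) and without replicate 3 it was -0.92 (edgeR adjusted p = 0.168).

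In total RNA, *Cdkn2b* had 53.01, 38.8, 27.6 and 18.4 CPM in KM_NTC replicates 1 to 4 and 28.6, 15.8, 12.5 and 8.53 CPM in KM_4A2cr cells. The ratios of the pairs were close together, between 0.407 and 0.540. RNA fell by 1.10 on the log2 scale (SE 0.14, 95% interval -1.41 to -0.80, edgeR adjusted p = 0.0026), and the call held whichever replicate was left out, at -1.03 to -1.19.

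*Cdkn2c* (ENSMUSG00000028551.15) was near the limit of detection. Its RPFs were 1 or 2 counts in each KM_NTC library and 2 to 5 counts in each KM_4A2cr library, and no fold is given. In total RNA it had 2.24, 2.70, 1.62 and 3.07 CPM in KM_NTC replicates 1 to 4 and 5.23, 3.82, 4.54 and 3.92 CPM in KM_4A2cr cells, on 12 to 32 counts a library. The lines did not overlap, but the log2 fold change of 0.86 ± 0.26 (SE, 95% interval 0.28 to 1.44) missed the threshold at an edgeR adjusted p of 0.11. Without replicate 4 it was 0.98 and passed it (edgeR adjusted p = 0.0126).

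Genes beside *Cdkn2a* and *Cdkn2b* were then read for comparison, in the gene order of GRCm38.p6 and after the falls had been seen. Only the order was used, not distances, so these genes need not lie close to the locus. Of the 5 next tested genes on either side, 1 of 10 was called lower in RPFs and 0 of 10 in total RNA (edgeR). Of all genes tested, 3.72% and 1.78% were called lower. Log2 fold changes of the 10 were -0.47 to 0.19 in RPFs (median -0.12) and -0.50 to 0.28 in total RNA (median -0.18). The called one was *Focad*, at -0.47 ± 0.13 in RPFs (SE, edgeR adjusted p = 0.0757) and -0.50 ± 0.16 in total RNA (edgeR adjusted p = 0.119), and its RPF call was lost without replicate 1 (-0.47, adjusted p = 0.211), 2 (-0.46, 0.376) or 3 (-0.51, 0.275). *Mtap*, the nearest on the *Cdkn2a* side and an enzyme of methionine salvage, was at -0.10 ± 0.12 in RPFs and -0.05 ± 0.12 in total RNA (SE). Over the 629 tested RPF genes of chromosome 4 the median log2 fold change was 0.01.

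**Figure D2:**
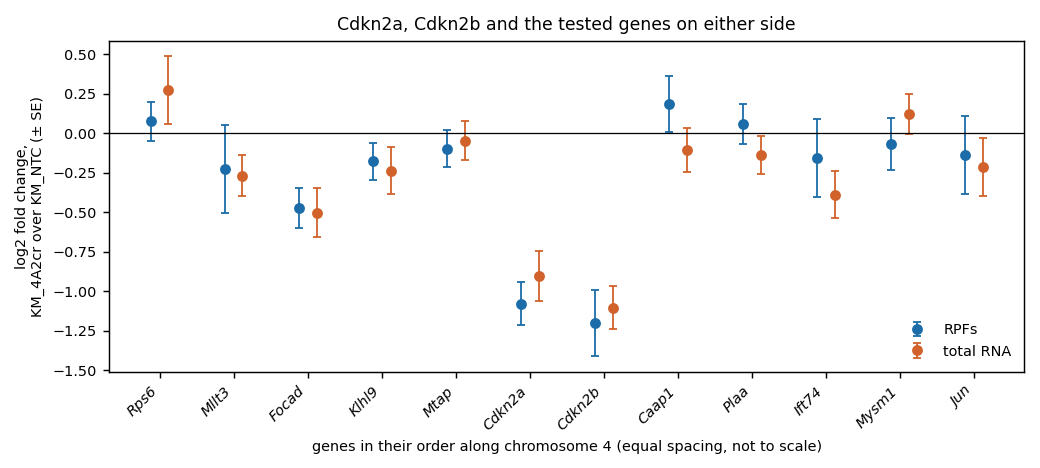
Log2 fold change of KM_4A2cr over KM_NTC (vertical axis, bars are SE) for *Cdkn2a*, *Cdkn2b* and the 5 next tested genes on either side. Genes stand in their order on chromosome 4, not to scale, with RPFs in blue and total RNA in orange. *Cdkn2a* and *Cdkn2b* lie between -0.90 and -1.20, and the other 10 genes between -0.50 and 0.28.

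Of the CIP/KIP inhibitors, *Cdkn1a*, which encodes p21, was called higher in total RNA, the 1 gene of the 10 to be so, and its RPFs were not called. *Cdkn1b*, which encodes p27, was higher in each pair of RPF and total RNA libraries by small amounts that did not pass the test.

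*Cdkn1a* (ENSMUSG00000023067.15) had 48.7, 71.7, 67.3 and 76.6 CPM in the total RNA of KM_NTC replicates 1 to 4. In KM_4A2cr replicates 1 to 4 it had 62.5, 89.1, 98.5 and 192 CPM. KM_4A2cr was the higher library in each pair, by ratios of 1.28, 1.24, 1.46 and 2.50, so replicate 4 gave by far the largest difference. The log2 fold change was 0.63 ± 0.17 (SE, 95% interval 0.26 to 1.01, edgeR adjusted p = 0.0794). Without replicate 4 it was 0.40 and remained called (edgeR adjusted p = 0.00673). It was not called without replicate 1 (0.72, adjusted p = 0.168), 2 (0.75, 0.185) or 3 (0.66, 0.373), nor at a threshold of 0.05, nor under upper-quartile or library-size scaling (0.59 and 0.48).

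In RPFs, *Cdkn1a* had 43.5, 73.3, 98.5 and 71.3 CPM in KM_NTC replicates 1 to 4 and 48.1, 87.3, 89.1 and 194 CPM in KM_4A2cr cells. Replicates 1 to 3 of the lines lay within the same range, and only KM_4A2cr replicate 4 stood above it, at 2.59 times the mean of the other KM_4A2cr replicates. The log2 fold change was 0.41 ± 0.23 (SE, 95% interval -0.12 to 0.94, edgeR adjusted p = 0.325). Without replicate 4 it was 0.08 (edgeR adjusted p = 0.619).

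*Cdkn1b* (ENSMUSG00000003031.15) had 39.9, 32.3, 22.0 and 52.7 CPM in the RPFs of KM_NTC replicates 1 to 4 and 43.8, 38.4, 26.4 and 61.7 CPM in those of KM_4A2cr cells. Its log2 fold changes were 0.22 ± 0.12 in RPFs (SE, 95% interval -0.05 to 0.49, edgeR adjusted p = 0.313) and 0.21 ± 0.12 in total RNA (95% interval -0.06 to 0.49, edgeR adjusted p = 0.4). The ratios of the RPF pairs were 1.10, 1.19, 1.20 and 1.17, close together, and the means were 36.7 CPM in KM_NTC and 42.6 CPM in KM_4A2cr cells.

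**Figure D3:**
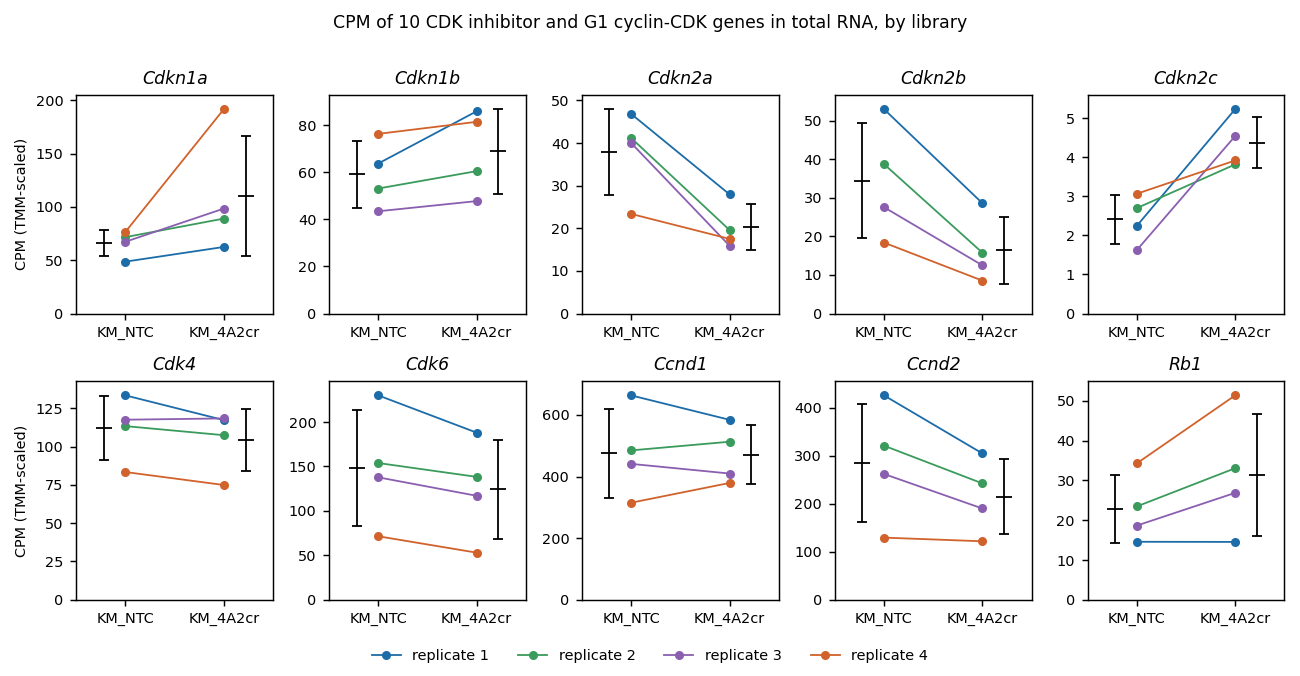
Total RNA levels of the 10 genes in CPM (TMM-scaled, vertical axes from 0, 1 scale per gene) in KM_NTC and KM_4A2cr cells. Coloured points and lines are the 4 replicate pairs, and black marks are means with SD. *Cdkn1a* is higher and *Cdkn2a* and *Cdkn2b* are lower in KM_4A2cr cells in 4 of 4 pairs.

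D-type cyclins and their kinases had log2 fold changes between -0.36 and 0.02 in RPFs and total RNA. With all 4 pairs, edgeR with TMM scaling called none of *Ccnd1*, *Ccnd2*, *Cdk4* and *Cdk6* in RPFs, total RNA or translational efficiency. DESeq2, which used its own scaling, called none of them either. With library size alone, edgeR called *Ccnd2* lower in RPFs (adjusted p = 0.0984) and *Ccnd2* and *Cdk6* lower in total RNA (adjusted p = 0.0587 and 0.0761). At an unadjusted p under 0.05, *Ccnd2* and *Cdk6* were lower in total RNA. Of all 10880 genes tested there, 1995 had such a p, both directions together.

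*Ccnd1* (ENSMUSG00000070348.6), which encodes cyclin D1, had 346, 311, 286 and 219 CPM in the RPFs of KM_NTC replicates 1 to 4. In KM_4A2cr replicates 1 to 4 it had 322, 299.8, 251 and 296 CPM. Replicates 1 to 3 were lower and replicate 4 was higher in KM_4A2cr cells. The log2 fold change was 0.02 ± 0.14 in RPFs (SE, 95% interval -0.29 to 0.34, edgeR adjusted p = 0.945) and 0.01 ± 0.15 in total RNA (95% interval -0.31 to 0.34, edgeR adjusted p = 0.976). Its sign changed with the scaling and with replicate 4, between -0.11 and 0.12 in RPFs over 12 alternatives.

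*Ccnd2* (ENSMUSG00000000184.13), which encodes cyclin D2, had 189.6, 149, 149 and 73.8 CPM in the RPFs of KM_NTC replicates 1 to 4 and 134, 119, 105 and 78.9 CPM in those of KM_4A2cr cells. Replicates 1 to 3 were lower in KM_4A2cr cells, by ratios of 0.703 to 0.796, and replicate 4 was not. The log2 fold change was -0.32 ± 0.14 in RPFs (SE, 95% interval -0.64 to 0.00, edgeR adjusted p = 0.213) and -0.36 ± 0.13 in total RNA (95% interval -0.66 to -0.07, edgeR adjusted p = 0.179). Without replicate 4 it was -0.45 in RPFs (edgeR adjusted p = 0.00557) and -0.46 in total RNA (edgeR adjusted p = 0.00075).

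*Cdk4* (ENSMUSG00000006728.13) had 158, 94.9, 100.1 and 76.4 CPM in the RPFs of KM_NTC replicates 1 to 4 and 151, 92.7, 106 and 62.5 CPM in those of KM_4A2cr cells. The lines overlapped almost wholly. Its log2 fold change was -0.07 ± 0.12 in RPFs (SE, 95% interval -0.35 to 0.20, edgeR adjusted p = 0.753) and -0.10 ± 0.12 in total RNA (95% interval -0.36 to 0.16, edgeR adjusted p = 0.699).

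*Cdk6* (ENSMUSG00000040274.12) had 57.0, 34.2, 30.0 and 26.4 CPM in the RPFs of KM_NTC replicates 1 to 4 and 43.6, 31.0, 30.7 and 17.5 CPM in those of KM_4A2cr cells. Its log2 fold change was -0.26 ± 0.14 in RPFs (SE, 95% interval -0.58 to 0.06, edgeR adjusted p = 0.312) and -0.27 ± 0.12 in total RNA, where it was lower in 4 of 4 pairs (95% interval -0.54 to -0.01, edgeR adjusted p = 0.258). Without replicate 4 the total RNA value was -0.23 and was called (edgeR adjusted p = 0.075).

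*Rb1* (ENSMUSG00000022105.7), the substrate of these kinases, had 8.87, 14.4, 11.5 and 17.8 CPM in the RPFs of KM_NTC replicates 1 to 4 and 7.13, 17.6, 14.3 and 45.8 CPM in those of KM_4A2cr cells. As for *Cdkn1a*, KM_4A2cr replicate 4 stood apart, at 3.52 times the mean of replicates 1 to 3. The log2 fold change was 0.43 ± 0.24 in RPFs (SE, 95% interval -0.11 to 0.97, edgeR adjusted p = 0.316) and 0.12 without replicate 4. In total RNA it was 0.42 ± 0.14 (SE, 95% interval 0.11 to 0.73, edgeR adjusted p = 0.146), with replicate 1 level and the other pairs at ratios of 1.41 to 1.50, and 0.36 without replicate 4 (edgeR adjusted p = 0.0601).

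Leaving out replicate 4 thus changed the calls in both directions. Without it, 0 of 9 genes were called higher and 3 lower in RPFs, and 3 of 10 higher and 4 lower in total RNA. The same fits called 19.1% of all genes higher and 14.3% lower in RPFs, and 17.8% and 12% in total RNA. In translational efficiency without replicate 4, 0 of 9 were called in either direction, against 5.25% and 2.99% of all genes.

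Translational efficiency, the change in RPFs beyond that in total RNA of the same lysates, was tested to see whether footprints of these genes moved apart from their mRNA. None of 9 genes was called (edgeR), none had an unadjusted p under 0.05, and DESeq2 called none. Of all 9989 genes, 2.1% were called higher and 0.921% lower, and 1395 had an unadjusted p under 0.05, both directions together. The estimates ran from -0.20 ± 0.12 for *Cdkn1a* (SE, 95% interval -0.44 to 0.04, edgeR adjusted p = 0.465) to 0.05 ± 0.17 for *Rb1* (95% interval -0.30 to 0.41, edgeR adjusted p = 0.927). For the genes that fell they were -0.13 ± 0.13 for *Cdkn2a* (95% interval -0.39 to 0.14) and -0.10 ± 0.18 for *Cdkn2b* (95% interval -0.47 to 0.27). The intervals of both include 0. For *Cdkn2a*, RPFs on ENSMUST00000107131.2 were set against RNA summed over both of its transcripts. Against the RNA assigned to that transcript alone, the estimate was -0.19 (edgeR adjusted p = 0.65).

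**Figure D4:**
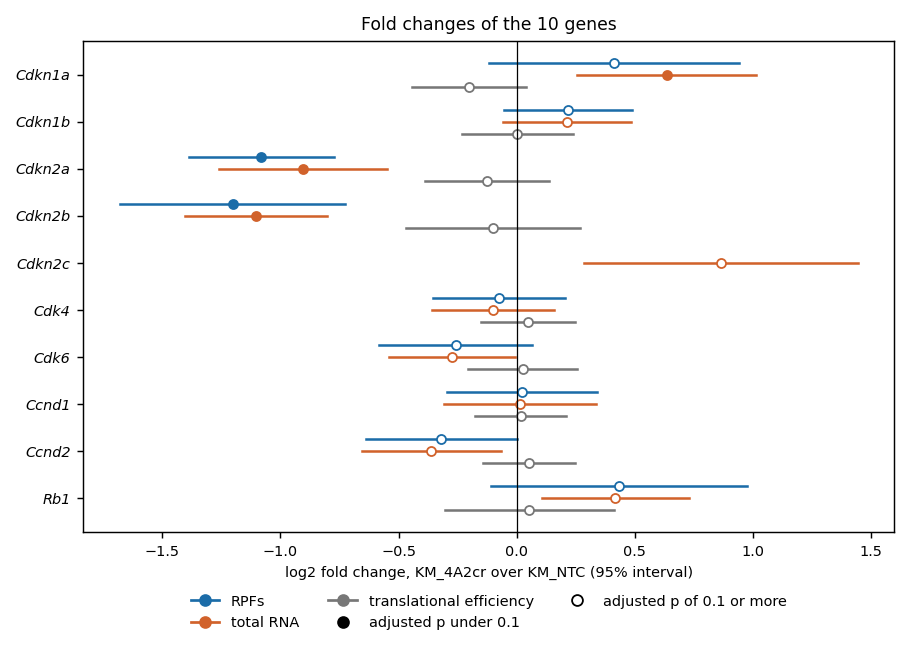
Log2 fold changes of KM_4A2cr over KM_NTC (horizontal axis) with 95% intervals for the 10 genes in RPFs, total RNA and translational efficiency. Filled points have an adjusted p under 0.1 and open points do not. The filled points are *Cdkn2a* and *Cdkn2b* in RPFs and total RNA and *Cdkn1a* in total RNA.

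Levels of the 10 genes were compared in TPM, which corrects for transcript length. In KM_NTC cells *Ccnd1* was highest, at 238 ± 87.7 TPM, followed by *Cdk4* at 153 ± 45.2, *Ccnd2* at 111 ± 56.8, *Cdkn2a* at 97.1 ± 34.2 and *Cdkn1a* at 81.2 ± 17.9 TPM (SD, n = 4). Below them were *Cdkn2b* at 51.1 ± 25.2, *Cdkn1b* at 40.3 ± 6.85, *Cdk6* at 23.5 ± 11.4, *Rb1* at 8.72 ± 2.65 and *Cdkn2c* at 2.53 ± 0.645 TPM (SD, n = 4). Ranges of neighbours in this order overlapped except those of *Rb1* and *Cdkn2c*. In KM_4A2cr cells *Ccnd1* and *Cdk4* led again, at 213 ± 79.7 and 133 ± 46.7 TPM, and *Cdkn1a* came next at 111 ± 27.7 TPM. *Cdkn2a* stood at 46.2 ± 18.1 and *Cdkn2b* at 22.2 ± 13.7 TPM, below *Ccnd2* at 75.9 ± 36.7 and *Cdkn1b* at 42.6 ± 12.9 TPM respectively (SD, n = 4). All neighbours overlapped there, and *Cdk6* at 18.3, *Rb1* at 10.4 and *Cdkn2c* at 4.24 TPM closed the order.

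Ratios within a library do not depend on the scaling between libraries, and 3 were computed after the fold changes had been seen. The summed INK4 transcripts (*Cdkn2a*, *Cdkn2b* and *Cdkn2c*) over *Cdk4* and *Cdk6* were 0.874, 0.916, 0.814 and 0.731 in KM_NTC replicates 1 to 4. In KM_4A2cr replicates 1 to 4 this ratio was 0.603, 0.462, 0.342 and 0.534. The lines did not overlap, with means of 0.834 ± 0.0805 and 0.485 ± 0.112 (SD, n = 4). The ratio of *Cdkn1a* and *Cdkn1b* to the same kinases was 0.763 ± 0.339 in KM_NTC and 1.26 ± 0.862 in KM_4A2cr cells, higher in 4 of 4 pairs, with replicate 4 highest in both lines (1.25 and 2.54). The ratio of *Ccnd1* and *Ccnd2* to the kinases was 1.92 ± 0.238 and 1.93 ± 0.274, lower in 2 of 4 pairs. An exact sign-flip permutation test over 4 pairs cannot go below a two-sided p of 0.125, the value that the first 2 ratios reached, so it could not pass a threshold. Since *Cdkn2a* transcripts of p19ARF are in the first sum, it is not a measure of CDK4 and CDK6 inhibitors alone.

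**Figure D5:**
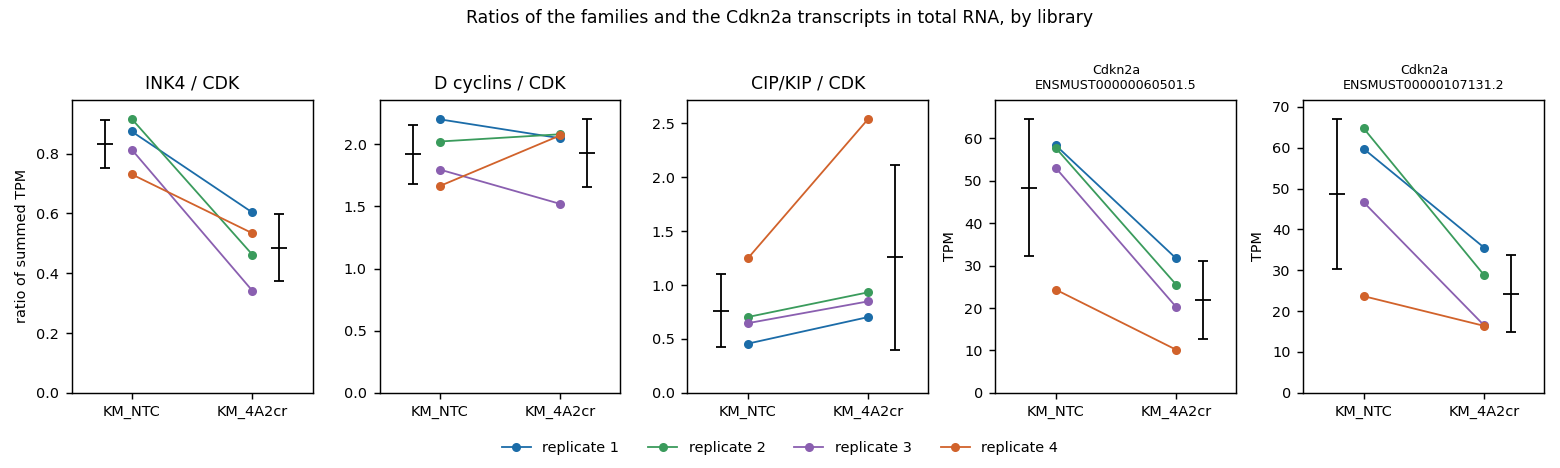
Left, ratios of summed TPM within each total RNA library (INK4 is *Cdkn2a*, *Cdkn2b* and *Cdkn2c*, CIP/KIP is *Cdkn1a* and *Cdkn1b*, CDK is *Cdk4* and *Cdk6*). Right, TPM of both *Cdkn2a* transcripts. Lines join the 4 replicate pairs, black marks are means with SD, and axes start at 0. The INK4 ratio averages 0.834 and 0.485, without overlap, and the TPM assigned to each transcript is lower in 4 of 4 pairs.

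Other genes of the G1/S pathway, from 9 lists, were mostly not called with all 4 pairs, and more were called without replicate 4, as over all genes. With all pairs, the shares of all genes called were 6.6% higher and 3.72% lower in RPFs and 4.35% and 1.78% in total RNA. Without replicate 4 they were 19.1% and 14.3%, and 17.8% and 12%. With all pairs, 2411 of all 10291 genes in RPFs had an unadjusted p under 0.05, both directions together. In total RNA 1995 of all 10880 had one. Among 10 further G1/S cyclins and CDKs, 8 were tested and 0 called in RPFs and in total RNA (edgeR), with 2 and 3 of them lower at an unadjusted p under 0.05. The medians of their log2 fold changes were -0.15 and -0.19. Without replicate 4, 1 was called higher and 3 lower in RPFs, and 1 and 3 in total RNA. All 12 pocket protein, E2F and DP genes were tested and 0 were called, with 3 higher in RPFs and 0 in total RNA at an unadjusted p under 0.05. Without replicate 4, 2 of them were called higher in RPFs and 0 in total RNA. *Cdkn3*, a phosphatase that binds CDKs, fell in total RNA (log2 fold change -0.59 ± 0.15 SE, edgeR adjusted p = 0.0705) and was at -0.32 ± 0.18 in RPFs. *Mybl2*, the B-MYB factor of the MuvB complex, fell in total RNA (-0.58 ± 0.14 SE, edgeR adjusted p = 0.0563) with an RPF value of -0.48 ± 0.16 that missed the threshold. The MuvB list also held the transcription factors *Mybl2* and *Foxm1*. Of its 6 tested genes, 1 was called higher and 2 lower in RPFs without replicate 4. In total RNA 0 were called higher and 3 lower, which were *Foxm1*, *Mybl2* and *Rbbp4*.

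The 35 E2F target genes of G1/S, which encode replication and nucleotide synthesis proteins, report on RB and E2F downstream. In RPFs 1 was called lower and 0 higher (edgeR), and 10 were above 0. At an unadjusted p under 0.05, 8 were lower and 0 higher, beside 2411 of all 10291 genes, both directions together. The median log2 fold change of the 35 was -0.15 in RPFs and -0.06 in total RNA, beside -0.01 and 0.01 over all genes. The called one was *Dut*, a dUTPase, at -0.45 ± 0.13 (SE, edgeR adjusted p = 0.0852). In total RNA 1 was called higher and 0 lower, and it was *Cdc6*, which loads the replicative helicase, at 0.62 ± 0.18 (SE, edgeR adjusted p = 0.0941). At an unadjusted p under 0.05, 2 were higher and 3 lower in total RNA, beside 1995 of all 10880 genes, both directions together. Without replicate 4, 7 of the 35 were called lower and 1 higher in RPFs, and 4 lower and 1 higher in total RNA.

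Genes that degrade CDK inhibitors and cyclins (12 of 13 tested), CDK-activating kinase and CDC25 genes (10 of 10) and regulators of the INK4/ARF locus such as Polycomb proteins (18 of 21) had 0 calls in RPFs and 0 in total RNA (edgeR). At an unadjusted p under 0.05, these lists held 2 genes higher and 1 lower in RPFs and 3 higher and 1 lower in total RNA. Without replicate 4 they held 0 calls higher and 6 lower in RPFs, and 3 higher and 4 lower in total RNA. *Suz12*, a subunit of Polycomb repressive complex PRC2, had a higher translational efficiency in KM_4A2cr cells (0.51 ± 0.11 SE, edgeR adjusted p = 0.022), with log2 fold changes of 0.31 in RPFs and -0.19 in total RNA that were not called. *Ets2*, an ETS factor, had a lower one (-0.36 ± 0.10 SE, edgeR adjusted p = 0.0915).

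Of 28 tested genes of p53 and its targets, 2 were called higher and 1 lower in RPFs, and 3 higher and 0 lower in total RNA (edgeR). At an unadjusted p under 0.05, 5 were higher and 2 lower in RPFs, and 8 higher and 0 lower in total RNA. Of all genes, 2411 of 10291 and 1995 of 10880 had such a p, both directions together. In total RNA 23 of the 28 were above 0, with a median log2 fold change of 0.32, and in RPFs 17 were, with a median of 0.11. Without replicate 4 the balance turned in RPFs, where 4 were called higher and 8 lower with a median of -0.14, and in total RNA 5 of 27 were called higher and 4 lower with a median of 0.09. *Ei24*, a membrane protein induced by p53, had 37.9 ± 19.2 CPM in KM_NTC and 84.9 ± 41.3 CPM in KM_4A2cr RPFs (SD, n = 4), a log2 fold change of 1.14 ± 0.14 (SE, edgeR adjusted p = 0.00505). The log2 fold change of its total RNA was 0.53 ± 0.12 (SE, edgeR adjusted p = 0.0499) and that of its translational efficiency was 0.61 ± 0.10 (SE, edgeR adjusted p = 0.00396). *Perp*, a desmosome protein and p53 target, rose in RPFs (log2 fold change 0.61 ± 0.12 SE, edgeR adjusted p = 0.0272) and total RNA (0.72 ± 0.15 SE, edgeR adjusted p = 0.0372). *Ddit4*, an inhibitor of mTORC1, rose in total RNA (log2 fold change 0.80 ± 0.19 SE, edgeR adjusted p = 0.0548). *Trp53* itself fell in RPFs (log2 fold change -0.47 ± 0.12 SE, edgeR adjusted p = 0.065), and its total RNA was at -0.16 ± 0.14. *Ccng1*, cyclin G1, had a lower translational efficiency (-0.34 ± 0.10 SE, edgeR adjusted p = 0.0915).

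Most of these 14 pathway calls needed replicates 1, 2 and 3. Without replicate 4 all 14 remained called (edgeR) beside the further calls given with each list, and without replicates 1, 2 and 3 the numbers that did were 3, 4 and 1. *Ei24* translational efficiency was called in each of these fits, at log2 fold changes of 0.57 to 0.67, and *Ei24* RPFs in all but the one without replicate 3 (1.11, edgeR adjusted p = 0.11). *Ddit4* lost its call without replicate 3 (0.61, edgeR adjusted p = 0.395), and *Suz12* translational efficiency without replicate 1 (0.54, adjusted p = 0.16) or 3 (0.45, 0.181). *Ei24* total RNA, *Perp* in RPFs and total RNA, *Trp53*, *Dut*, *Cdkn3*, *Mybl2*, *Cdc6*, *Ets2* and *Ccng1* lost theirs without any 1 of replicates 1 to 3. Their signs held in all of these fits. The log2 fold changes without replicates 1, 2 and 3 were 0.58, 0.57 and 0.69 for *Perp* RPFs, and -0.42, -0.48 and -0.44 for *Trp53* RPFs. They were -0.62, -0.66 and -0.60 for *Cdkn3* and -0.62, -0.53 and -0.66 for *Mybl2* in total RNA. *Dut* RPFs were at -0.48, -0.50 and -0.32 and *Cdc6* RNA at 0.67, 0.59 and 0.75 in the same fits.

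Across the 8 RPF libraries, the genes whose log2 CPM followed *Cdkn1a* most closely were *D8Ertd738e* (Pearson r = 0.976), *Ube2f* (0.973) and *Brd2* (0.972), out of 10291 genes. Those closest to *Ccnd1* were *Psme4* (0.959), *Ugdh* (0.958) and *Krt75* (0.953). These values are descriptions over 8 libraries that share replicates, and the distance of replicate 4 from the others enters each of them.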

How the data were processed

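RPFs (80S fraction after RNase I) and cytoplasmic total RNA were measured in KM_NTC and KM_4A2cr cells, 4 libraries of each per line. For RPFs the authors deposited whole counts over the coding sequence of the most abundant transcript of each gene, after trimming with Cutadapt 1.18, alignment with BBmap to GENCODE vM27 and removal of duplicates with UMI-tools 1.0.1. For total RNA the authors deposited RSEM 1.3.3 expected counts, TPM and FPKM per isoform, after Bowtie2 2.3.5.1 alignment, and FPKM was not used here.

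Expected counts were summed per gene and rounded. R 4.3.3 and edgeR 4.0.16 (filterByExpr, TMM, quasi-likelihood tests with the replicate number as a block) gave log2 fold changes and Benjamini-Hochberg adjusted p-values over all tested genes, called under 0.1, the limit marked in the study's plot of RPF changes. Translational efficiency was the interaction of line and kind of library in 1 model of 16 libraries that also held the lysate and, within RPFs and total RNA apart, the replicate. Libraries were paired by replicate number, and the series description gives separate experiments on different days. Deviations from line means correlated at 0.575 to 0.782 in RPFs and 0.611 to 0.756 in total RNA between libraries of the same number. Libraries of different numbers were not correlated for comparison. Several genes stood apart in replicate 4 of both lines, which can by itself raise these correlations. They therefore cannot show whether the other replicates were paired. CPM values are TMM-scaled. Each kind was normalised on its own, so a change of all RNA or all footprints leaves no trace. At 4512403 to 9621848 counts a library, genes with few counts have imprecise folds, and intervals on shares cover counting error only.

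The 10 genes, the 9 pathway lists and the rule for named genes were chosen with earlier results of these data known. The rule names the 10 genes, *Eif4a2*, up to 3 RPF and 2 total RNA calls per list, and the 3 genes most correlated with *Cdkn1a* and with *Ccnd1*. *Suz12*, *Ets2* and *Ccng1*, neighbours of *Cdkn2a*, and ratios were added after values were seen. Gene order and promoter windows come from RefSeq on GRCm38.p6, another build than that of the files. Alternatives were no replicate block, DESeq2 1.42.0, other scalings, filters, isoforms and threshold, and each replicate left out. The fits were tested on simulated data drawn from the same edgeR model with the replicate block. That test cannot show how they handle data that depart from this model, such as wrongly paired replicates. Another allele that both lines carry is not reported here.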

Additional observations from a re-analysis of the deposited data

Results flagged for a closer look

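In 38 groups of CPM values and 20 groups of TPM values, of 4 libraries each and checked for a library far from the others, 2 were found, both in TPM, and chance gives about 1 in 20 groups. *Cdkn1b* total RNA was 30.1 TPM in KM_NTC replicate 3, and the other KM_NTC libraries lay between 43.0 and 44.4 TPM. *Cdk4* total RNA was 63.0 TPM in KM_4A2cr replicate 4, against 149.8 to 159.7 TPM in the other KM_4A2cr libraries. KM_NTC replicate 4 was also the lowest of its line for *Cdk4*, at 90.2 TPM.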

How the results depend on the processing

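With all 4 pairs and the replicate block, edgeR and DESeq2 called the same number of the 10 genes in each comparison. Without the block, 0 were called lower in RPFs and in total RNA and 0 higher in total RNA, although log2 fold changes stayed at -1.06 for *Cdkn2a* and -1.17 for *Cdkn2b* in RPFs, and over all genes the smallest adjusted p of these 10 was 0.998. In the paired analysis that leaves out 1 replicate, 0 to 3 genes were called lower in RPFs, 1 to 4 lower in total RNA and 0 to 3 higher in total RNA. The number called higher in total RNA was 0 with upper-quartile scaling, 0 with library size, 0 at a threshold of 0.05, 0 on the RPF isoforms only, and 2 with no filter on low counts. With library size alone, 3 were called lower in RPFs, adding *Ccnd2*, and 4 in total RNA, adding *Ccnd2* and *Cdk6*.

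Signs turned only for values that no setting called. *Ccnd1* was -0.0192 in RPFs and -0.0262 in total RNA with upper-quartile scaling, -0.11 and -0.14 with library size, -0.0140 in total RNA without the block and -0.00726 with no filter. Leaving out 1 replicate gave -0.11 to 0.12 in RPFs and -0.0774 to 0.0798 in total RNA for *Ccnd1*. In translational efficiency the same runs gave -0.0243 to 0.0697 for *Ccnd1*, -0.0407 to 0.12 for *Cdkn1b*, -0.22 to 0.11 for *Cdkn2b*, -0.0326 to 0.0812 for *Cdk6* and -0.22 to 0.16 for *Rb1*. *Cdkn1b* was -4.65e-05 there without the block and -0.0824 on the RPF isoforms. The causes were not tested. Of the 14 calls of pathway genes, 0 held without the block, 10 held with library size, and DESeq2 did not make those of *Cdkn3* and *Cdc6* in total RNA and *Ets2* and *Ccng1* in translational efficiency. Over all alternatives, 377 log2 fold changes of single genes and transcripts kept their direction and side of the threshold, 99 were no longer called, 9 became called and 19 changed sign.

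The design has 4 pairs, 1 pool of clones and libraries of at most 9621848 counts. *Cdkn2c* RPFs, at 1 to 5 counts a library, could not be tested at this depth. Adjusted p-values between 0.05 and 0.1, such as that of *Cdkn1a*, pass only at the threshold of 0.1.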
